A study of Mus musculus with 9 samples.

Results

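The 8 genes described here encode the 3 peroxisome proliferator-activated receptors (PPARs), *Ppara*, *Ppard* and *Pparg*, and 5 proteins that adjust the activity of these receptors, the coactivators *Ppargc1a*, *Ppargc1b* and *Med1* and the corepressors *Ncor1* and *Nrip1*. They were picked by gene symbol from a table of 54432 genes, and all 8 were found in it. PPARs are nuclear receptors that bind fatty acids and fatty acid derivatives, pair with a retinoid X receptor (RXR) on DNA and control genes for the uptake, storage and oxidation of lipids. Coactivators such as the PGC-1 proteins and the Mediator subunit MED1 link the receptor to the transcription machinery, whereas NCOR1 and NRIP1 (also known as RIP140) dampen transcription by nuclear receptors. Macrophages are known to use PPARδ and PPARγ in their handling of lipids and in the control of inflammatory genes.

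RNAseq had been carried out on RAW264.7 cells, an established mouse macrophage-like line, to profile the response to triglyceride-rich particles. Control cells were left untreated, and the other cells were given emulsion particles for 6 hours, at 1 mM according to the sample labels, either VLDL-sized (VLDLsep) or chylomicron-sized (CHYLsep), both made of sunflower oil with sodium caseinate as the emulsifier. Each of the 3 groups had 3 libraries. The methods mention biological and technical triplicates and the pooling of samples from the same experiment, so each library is a pool, and a p-value here measures the spread between such pools, part of which may be technical. Because the control cells received neither oil nor emulsifier, the parts played by these components cannot be told apart. Control libraries summed to between 22617191 and 22856792 estimated counts, VLDLsep libraries to between 22393893 and 22815932 and CHYLsep libraries to between 22482786 and 22703800, so depth hardly differed. At this depth 10 counts correspond to about 0.44 cpm (the usual CPM, counts scaled to library size).

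The macrophage label was checked against markers. All 7 macrophage markers were detected in every library, with a summed level of 6089 ± 52.6 cpm in control, 5704 ± 128 cpm after VLDLsep and 5802 ± 109 cpm after CHYLsep (SD, n = 3), led by *Lyz2*. All 4 hepatocyte markers, among them *Alb*, were at 0, and of the 5 adipocyte markers 4 were at 0, *Adipoq* included, while *Plin1* had at most 2 counts in any library. T cell markers (*Cd3g* and *Cd8a* at 0, *Cd4* with at most 7 counts), B cell markers (at most 2 counts for any gene) and the fibroblast markers *Col1a1*, *Col1a2* and *Dcn* were at or near 0, and only *Pdgfra*, with 30 to 55 counts, stood above that. The T cell list summed to 0.226 ± 0.0673, 0.196 ± 0.0674 and 0.195 ± 0.0694 cpm and the B cell list to 0.113 ± 0.0504, 0.0603 ± 0.0256 and 0.0750 ± 0.0520 cpm in control, VLDLsep and CHYLsep. The summed fibroblast level was 1.69 ± 0.196 cpm in control, 1.92 ± 0.322 cpm after VLDLsep and 2.26 ± 0.380 cpm after CHYLsep.

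The libraries of replicate 3 stood apart in every group. A chi-square of the counts, divided by the number of genes, was 3.26 to 4.82 between replicates 1 and 2 of a group and 11.3 to 14.2 between either of them and replicate 3, so no library was a duplicate of another. Values without replicate 3 of every group are therefore given beside the members' results.

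After VLDL-sized particles *Ppard* was the member that changed: its mRNA rose 1.97-fold. No other member passed the test without a replicate block, with *Ppargc1b* at 0.761 and *Ncor1* at 1.12 times the control level and all libraries of these 2 genes outside the control range. With the replicate number as a block, *Ncor1* and *Ppargc1b* passed too (adjusted p = 0.0056 and 0.0067, limma-voom with Benjamini-Hochberg adjustment). *Ppara* was near the detection limit and *Ppargc1a* had no count in any library. A gene entered the test if it exceeded 10 counts in 3 or more libraries, which 6 of the 8 members and 12637 genes in all did, and a gene was called when its adjusted p was under 0.05 (limma-voom with Benjamini-Hochberg adjustment over all genes tested). Of the 6 tested members 1 was called, and of all genes tested 35.6% were (17.8% higher and 17.9% lower). The VLDLsep libraries all lay above the control libraries for 2 members and all below for 1, against 23.7% of the genes tested in the higher direction and 23.7% in the lower.

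After CHYL-sized particles *Ppard* was again the member that rose, 1.54-fold. The 5 other tested members did not pass, and their fitted levels lay between 0.809 (*Pparg*) and 1.04 (*Ncor1*) times control. With the replicate number as a block, *Nrip1* passed too (adjusted p = 0.047, limma-voom with Benjamini-Hochberg adjustment). Without the block 1 of 6 tested members was called against 25.7% of all genes tested (12.7% higher and 13.0% lower), and for *Ppard* alone the 2 groups did not overlap, against 20.8% of genes in the higher direction and 20.9% in the lower. Both particle groups were compared with the same 3 control libraries, so that the values of the 2 comparisons stand side by side and are not independent. With library size as the only scaling, the calls over all genes tilted to 1507 higher and 3312 lower after VLDLsep (2244 and 2256 with TMM scaling) and to 1068 higher and 2514 lower after CHYLsep (1610 and 1639), while the count of members called stayed at 1 in each comparison.

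**Figure D1:**
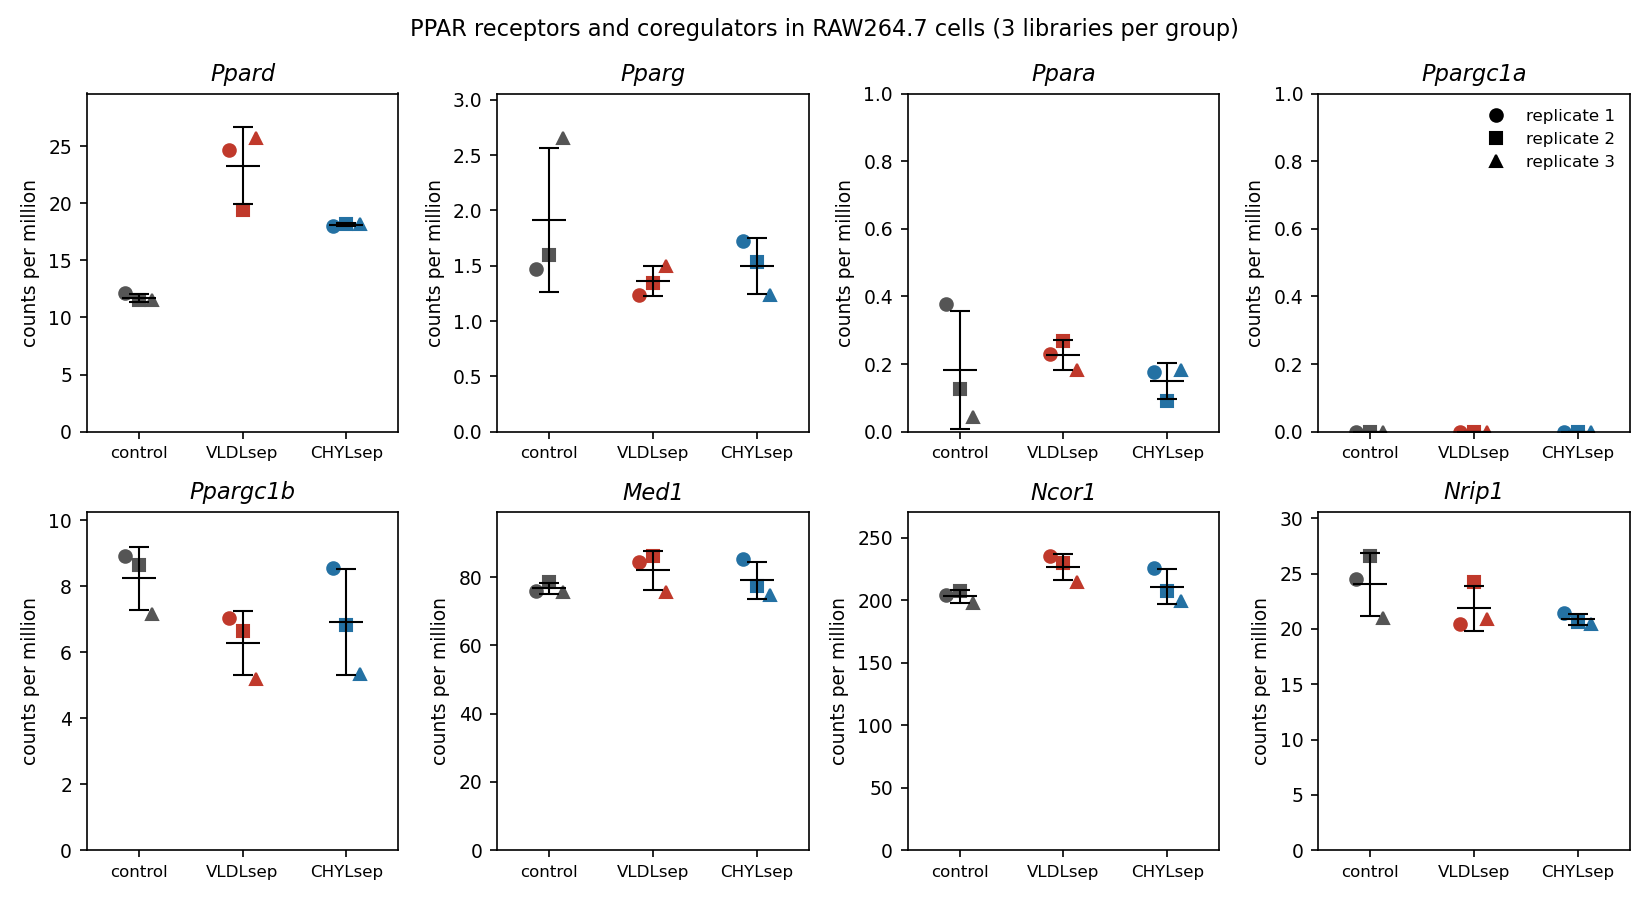
Level in cpm of the 8 members in each library, with circles, squares and triangles for replicates 1, 2 and 3, a bar at the mean of each group and whiskers of 1 SD (n = 3). The *Ppard* libraries fall into 3 ranges without overlap, with control the lowest, CHYLsep in the middle and VLDLsep the highest, whereas *Ppargc1a* is at 0 throughout.

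Among the receptors, *Ppard* (ENSMUSG00000002250, chromosome 17 from 28232700 to 28301474; coordinates are those of GRCm38) encodes PPARδ, the most widely expressed PPAR, which is known for switching on fatty acid oxidation genes. It had 12.2, 11.5 and 11.5 cpm in control replicates 1, 2 and 3, 24.6, 19.5 and 25.8 cpm after VLDLsep and 17.99, 18.2 and 18.2 cpm after CHYLsep, from raw counts of 289, 274 and 269, 540, 433 and 566 and 406, 404 and 399. Every treated library was above every control library, the CHYLsep libraries were nearly equal to each other, and the VLDLsep libraries were more scattered, with replicate 2 the lowest of them. The group means were 11.7 ± 0.355 cpm in control, 23.3 ± 3.36 cpm after VLDLsep and 18.1 ± 0.117 cpm after CHYLsep (SD, n = 3). The log2 fold change was 0.98 (standard error 0.11, adjusted p = 7.0e-05) for VLDLsep and 0.63 (standard error 0.11, adjusted p = 0.0023) for CHYLsep (limma-voom with Benjamini-Hochberg adjustment), higher in 3 of 3 libraries each time. Without replicate 3 of every group these values were 0.88 (adjusted p = 2.2e-05) and 0.61 (adjusted p = 9.9e-04) with limma-voom and Benjamini-Hochberg adjustment. In bulk RNA a shift in the share of cells that express a gene and a shift in the RNA per cell cannot be told apart.

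*Pparg* (ENSMUSG00000000440, chromosome 6 from 115360951 to 115490399), which encodes PPARγ, the receptor of adipocyte differentiation and of lipid-laden macrophages, was expressed at a low level. Its values were 1.47, 1.60 and 2.66 cpm in the control libraries, 1.23, 1.35 and 1.502 cpm after VLDLsep and 1.73, 1.53 and 1.23 cpm after CHYLsep, from no more than 62 counts in any library. Control replicate 3 was the highest of the 9 libraries, and the groups overlapped in both comparisons. The log2 fold change was -0.43 (standard error 0.26, adjusted p = 0.22) for VLDLsep and -0.31 (standard error 0.25, adjusted p = 0.42) for CHYLsep, so neither difference passed with limma-voom and Benjamini-Hochberg adjustment. It was -0.18 and -0.05 without control replicate 3, and -0.25 and 0.08 without replicate 3 of every group, so the lower mean of the treated groups rested in large part on that control library. The 95% intervals of the log2 differences ran from -0.9997 to 0.13 and from -0.86 to 0.25.

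*Ppara* (ENSMUSG00000022383, chromosome 15 from 85734983 to 85802819), the PPAR of liver and other tissues with active fatty acid oxidation, had 9, 3 and 1 counts in the control libraries, 5, 6 and 4 after VLDLsep and 4, 2 and 4 after CHYLsep, and was not tested. Summed over the 3 libraries of a group this makes 13 counts in control (95% Poisson interval 6.92 to 22.2), 15 after VLDLsep (8.40 to 24.7) and 10 after CHYLsep (4.80 to 18.4), intervals that cover counting error only. The 3 intervals overlapped, and a difference in *Ppara* between the groups was not detectable at this depth.

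To compare the receptors with each other, counts were divided by the length of the longest annotated transcript and scaled to the same total in each library. On this per-length scale the level of *Ppard* was 7.28 ± 0.290 in control, 13.3 ± 1.73 after VLDLsep and 10.4 ± 0.187 after CHYLsep, that of *Pparg* 2.07 ± 0.669, 1.36 ± 0.121 and 1.504 ± 0.285, and that of *Ppara* 0.124 ± 0.119, 0.141 ± 0.0295 and 0.0936 ± 0.0326 (SD, n = 3). The order was *Ppard*, *Pparg*, *Ppara* in every group, with no overlap between neighbours. *Ppard* made up 77.0% ± 5.17 of the summed per-length level of the 3 PPARs in control, 89.7% ± 1.59 after VLDLsep and 86.7% ± 1.86 after CHYLsep. With the summed length of all exons in place of the longest transcript these shares were 69.5% ± 5.86, 85.5% ± 2.16 and 81.6% ± 2.39.

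Of 49 nuclear receptor genes listed, 27 passed the count filter, 12 had no count in any library and 10 had counts too low to test. The highest per-length levels over the 9 libraries were those of *Nr1h2*, which encodes the oxysterol receptor LXRβ (67.1), *Rxrb* (37.3), *Esrra* (29.5), the glucocorticoid receptor *Nr3c1* (23.9) and *Rxra* (17.5). In control alone *Nr2f6* (18.7) lay above *Rxra* (15.8). With median transcript lengths *Rxra* held place 7 over the 9 libraries. *Ppard* held place 13 in control, place 7 after VLDLsep and place 8 after CHYLsep. Its neighbours, named after their values were seen, were *Rara* above and *Nr1d2* below in control, *Nr2f6* and *Nr2c2* after VLDLsep and *Nr2c2* and *Nr1d2* after CHYLsep, and of these only *Rara* lay clear of *Ppard* in every library of the group. With median transcript lengths the places of *Ppard* were 13, 10 and 10, and with the length of all exons 14, 8 and 10. *Pparg* held places 18, 19 and 19 and *Ppara* places 27, 28 and 28 in control, VLDLsep and CHYLsep.

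**Figure D2:**
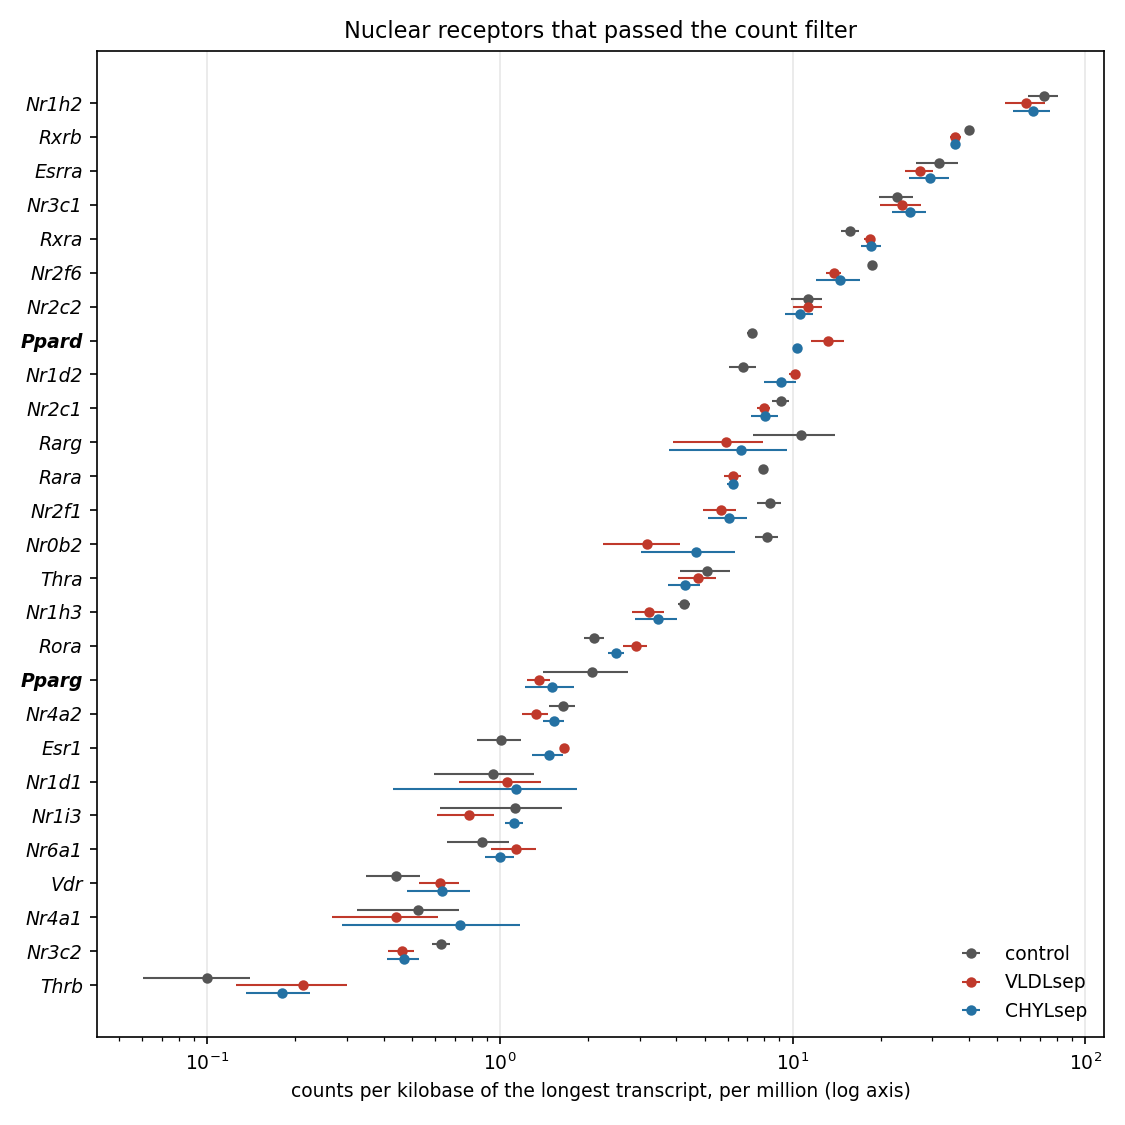
Levels per length of the longest transcript, on a log axis, for the 27 nuclear receptors that passed the count filter, with the mean of each group as a point and 1 SD as a line (n = 3). *Nr1h2* is the highest, *Ppard* moves up from place 13 in control to place 7 after VLDLsep, and *Pparg* lies in the lower part of the order.

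RefSeq promoters (GRCm38.p6, 250 bases before to 50 bases after the annotated start) were matched by symbol to 7 of the 8 members. They were searched on both strands for the PPAR core site AGGTCA and for its direct repeat with 1 base between the copies (DR1), AGGTCANAGGTCA, which contains the core site. The DR1 letters occurred in 13 of all 32851 promoters (0.0396%), and in none of the 11 promoters of the members or the 29 promoters of 24 PPAR target genes. At so low an overall share a match in so few promoters was not to be expected, so its absence carries little weight. The core site occurred in 5340 of all promoters (16.3%), in 8 of the 29 target promoters (27.6%), those of *Plin2*, *Cpt1a* and *Cd36* among them, and among the members in *Pparg* only, with 1 match in each of 2 alternative promoters. A match is a string of letters and not a measured binding site. The promoter of *Ppard* is shown because this is the member that rose in both treated groups, and the windows of *Plin2*, *Cpt1a* and *Pparg* show the core site, in capitals, where it was found (TGACCT is the same site read on the other strand).
*Ppard* promoter, chr17:28232504-28232803, plus strand: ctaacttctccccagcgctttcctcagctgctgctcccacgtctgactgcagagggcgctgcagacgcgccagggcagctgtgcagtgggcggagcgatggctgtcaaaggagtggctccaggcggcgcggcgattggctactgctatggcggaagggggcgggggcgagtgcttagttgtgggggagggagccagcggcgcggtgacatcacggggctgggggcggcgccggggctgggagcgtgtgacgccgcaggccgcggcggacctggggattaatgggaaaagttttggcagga
*Plin2*, chr4:86670260-86670289, minus strand: tttcaggaccccTGACCTaagtcagacagc
*Cpt1a*, chr19:3323195-3323224, plus strand: cagtttccttacTGACCTcctccccgcagc
*Pparg*, chr6:115361104-115361133, plus strand: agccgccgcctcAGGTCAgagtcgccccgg
*Pparg*, chr6:115362328-115362357, plus strand: agggacgcgaggAGGTCAagaaggggcctg

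The *Ppard* stretch holds no AGGTCA on either strand, which says only that these letters are missing from this window. RXRs are the obligate partners of PPARs. *Rxra* rose in both treated groups, with 33.0, 35.5 and 31.8 cpm in control, 44.0, 42.0 and 40.9 cpm after VLDLsep and 44.1, 44.4 and 39.7 cpm after CHYLsep. All treated libraries were above all control libraries, and the log2 fold change was 0.34 (standard error 0.07, adjusted p = 0.0027) for VLDLsep and 0.35 (standard error 0.07, adjusted p = 0.0032) for CHYLsep (limma-voom with Benjamini-Hochberg adjustment). *Rxrb* did not pass in either comparison (-0.04 and -0.05), its groups overlapped, and *Rxrg* had no count in any library.

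Turning to the coactivators, *Ppargc1a* (ENSMUSG00000029167, chromosome 5 from 51454250 to 51567726), which encodes PGC-1α, the inducible coactivator of mitochondrial biogenesis, had 0 counts in all 9 libraries. For a single library a floor of 3 counts was used, which is 0.126 to 0.137 cpm, so no fold was formed. For the 3 summed libraries of a group the upper 95% Poisson limit was 3.69 counts, or 0.052 to 0.056 cpm. *Ppargc1b* (ENSMUSG00000033871, chromosome 18 from 61298136 to 61400431), which encodes the related PGC-1β, was detected in all of them, with 8.92, 8.64 and 7.16 cpm in control, 7.03, 6.65 and 5.19 cpm after VLDLsep and 8.55, 6.84 and 5.34 cpm after CHYLsep. Replicate 3 was the lowest library of each group, the VLDLsep libraries all lay below the control libraries, if narrowly (7.03 against 7.16 cpm), and the CHYLsep libraries overlapped with control. The log2 fold change was -0.39 (standard error 0.18, adjusted p = 0.11) for VLDLsep and -0.27 (standard error 0.17, adjusted p = 0.29) for CHYLsep with limma-voom and Benjamini-Hochberg adjustment, so neither passed without a replicate block. With the replicate number as a block the VLDLsep value was -0.39 and passed (adjusted p = 0.0067, limma-voom with Benjamini-Hochberg adjustment). The CHYLsep value with the block was -0.25 and did not pass (adjusted p = 0.057, same test). Without replicate 3 of every group the VLDLsep value of *Ppargc1b* was -0.36 and passed (limma-voom with Benjamini-Hochberg adjustment, adjusted p = 0.039), whereas the CHYLsep value was -0.20 and did not (adjusted p = 0.26). When single libraries or replicate 3 of every group were left out, the values ran from -0.49 to -0.26 for VLDLsep and from -0.44 to -0.10 for CHYLsep.

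*Med1* (ENSMUSG00000018160, chromosome 11 from 98152154 to 98193293), the Mediator subunit that nuclear receptors contact, had 76.0, 78.5 and 75.5 cpm in control, 84.2, 86.1 and 75.5 cpm after VLDLsep and 85.1, 77.4 and 74.6 cpm after CHYLsep. Replicate 3 was the lowest library of every group, the control libraries were close together, and the groups overlapped. The log2 fold change was 0.09 (standard error 0.07, adjusted p = 0.30) for VLDLsep and 0.04 (standard error 0.07, adjusted p = 0.68) for CHYLsep (limma-voom with Benjamini-Hochberg adjustment). The 95% intervals of the log2 difference, -0.05 to 0.24 and -0.10 to 0.19, bound any change of *Med1* more tightly than those of the other coactivator. Without replicate 3 of every group the values were 0.14 and 0.07, and neither passed. The sign of the small CHYLsep value turned with library size as the only scaling (-0.04).

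Among the corepressors, *Ncor1* (ENSMUSG00000018501, chromosome 11 from 62316426 to 62458541), the scaffold that brings histone deacetylase 3 to unliganded nuclear receptors, had 204, 208 and 198 cpm in control, 235, 230.0 and 215 cpm after VLDLsep and 226, 208 and 199 cpm after CHYLsep. The VLDLsep libraries were all above the control libraries and the CHYLsep libraries overlapped with them. The log2 fold change was 0.16 (standard error 0.06, adjusted p = 0.055) for VLDLsep and 0.05 (standard error 0.06, adjusted p = 0.56) for CHYLsep (limma-voom with Benjamini-Hochberg adjustment), so that the VLDLsep value missed the threshold narrowly. It passed in some alternatives, among them those without replicate 3 of every group (0.18, adjusted p = 0.010), without VLDLsep replicate 3 (0.20, 0.031), without CHYLsep replicate 1 (0.15, 0.042) or CHYLsep replicate 3 (0.16, 0.046), all with limma-voom and Benjamini-Hochberg adjustment. With DESeq2 the adjusted p was 0.040 (Benjamini-Hochberg), and with the replicate number as a block it was 0.0056 (limma-voom with Benjamini-Hochberg adjustment). Library size as the only scaling gave *Ncor1* a log2 fold change of 0.06 for VLDLsep and -0.03 for CHYLsep. Whether *Ncor1* is called after VLDLsep thus depended on the setting, and its fold was 1.12.

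*Nrip1* (ENSMUSG00000048490, chromosome 16 from 76287400 to 76373827), a ligand-dependent corepressor known for holding back fatty acid oxidation genes, had 24.5, 26.6 and 21.0 cpm in control, 20.5, 24.2 and 20.9 cpm after VLDLsep and 21.4, 20.7 and 20.5 cpm after CHYLsep. Control replicate 3 was the lowest control library and lay within the range of the treated libraries, so the groups overlapped in both comparisons. The log2 fold change was -0.13 (standard error 0.10, adjusted p = 0.32) for VLDLsep and -0.20 (standard error 0.10, adjusted p = 0.17) for CHYLsep (limma-voom with Benjamini-Hochberg adjustment). With the replicate number as a block the CHYLsep value was -0.20 and passed narrowly (adjusted p = 0.047, limma-voom with Benjamini-Hochberg adjustment). The VLDLsep value with the block did not pass (adjusted p = 0.16, same test). Without control replicate 3 the CHYLsep value was -0.29 and without replicate 3 of every group -0.28, and both passed (adjusted p = 0.034 and 0.022, limma-voom with Benjamini-Hochberg adjustment). The VLDLsep values under the same omissions, -0.23 and -0.20, did not pass. Other omissions brought the values of *Nrip1* nearer to no change. The ranges over all omissions were -0.23 to -0.06 for VLDLsep and -0.29 to -0.12 for CHYLsep.

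On the per-length scale the coregulators spanned a wide range. In control *Ncor1* was the most abundant member at 52.0 ± 2.12, followed by *Med1* at 22.1 ± 0.746, *Ppard* at 7.28 ± 0.290, *Nrip1* at 7.06 ± 0.939, *Ppargc1b* at 5.21 ± 0.672 and *Pparg* at 2.07 ± 0.669 (SD, n = 3). Only *Ppard* and *Nrip1* overlapped among these neighbours. After VLDLsep *Ppard* stood at 13.3 ± 1.73 and *Nrip1* at 5.91 ± 0.630, and after CHYLsep at 10.4 ± 0.187 and 5.65 ± 0.274, in both groups without overlap. The places of *Ppard*, *Nrip1* and *Ppargc1b* relative to each other in control depended on the length used: *Nrip1* came before *Ppard* with median transcript lengths, and *Nrip1* and *Ppargc1b* both did with the length of all exons.

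VLDL-sized and CHYL-sized particles were also compared with each other. The sample labels and the methods give the same dose for both, although a figure legend of the paper gives a lower dose for CHYL-sized particles. *Ppard* was 1.27-fold higher after VLDLsep than after CHYLsep and was the only member whose libraries did not overlap between the 2 treated groups, a pattern shown in this direction by 5.66% of the genes tested. No member passed the test, and neither did any other gene: 0 of 12637 genes (0%) were called with limma-voom and Benjamini-Hochberg adjustment, 813 had an unadjusted p under 0.05, edgeR called 0 and DESeq2 called 24, with no member among them, although DESeq2 gave no adjusted p for *Ppard*, *Pparg*, *Ppargc1b* and *Nrip1*. For *Ppard* the log2 difference was 0.35 (95% interval 0.13 to 0.57, unadjusted p = 0.0055, adjusted p = 0.57 with limma-voom and Benjamini-Hochberg adjustment), and 0.27 without replicate 3 of every group. The 95% intervals of the difference were narrower for *Med1* (-0.09 to 0.20), *Ncor1* (-0.02 to 0.23) and *Nrip1* (-0.16 to 0.29) than for *Ppargc1b* (-0.54 to 0.29) and *Pparg* (-0.72 to 0.47). Without replicate 3 of every group 257 genes were called between the particles, again none of them a member.

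Genes that PPARs are known to control were taken as a list of 33. Of these 23 were tested, 10 were higher and none lower after VLDLsep, where 17.8% of all genes tested were called higher and 17.9% lower, and 9 were higher and none lower after CHYLsep, where 12.7% and 13.0% were. Among these 9, *Cd36* had too few control counts for its call to carry weight. This list, like the others, was chosen with earlier results of these data known, so its counts and median are a description and not independent support. The median log2 fold change was 0.24 for VLDLsep and 0.19 for CHYLsep, against -0.00028 and 0.0013 over all genes tested. *Plin2*, which coats lipid droplets, had 363, 349 and 316 cpm in control, 1255, 1224 and 1136 cpm after VLDLsep and 1049.9, 1050.3 and 1005 cpm after CHYLsep, 3 separate ranges. Its log2 fold change was 1.82 (standard error 0.06, adjusted p = 1.9e-08) and 1.60 (standard error 0.06, adjusted p = 5.5e-08) (limma-voom with Benjamini-Hochberg adjustment). *Cpt1a*, which admits long-chain fatty acids to mitochondria, rose from 41.4 ± 1.79 cpm to 128 ± 2.76 cpm and 126 ± 6.76 cpm (SD, n = 3), log2 fold changes of 1.63 and 1.60. The lipid droplet protein gene *Hilpda* rose by 1.58 and 1.22 and the carnitine carrier *Slc25a20* by 0.72 and 0.75 on the log2 scale. These genes have other regulators as well, and the part of PPARδ in their rise was not tested.

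Among other well-known PPAR targets, *Angptl4*, an inhibitor of lipoprotein lipase, had 11.2 ± 0.670 cpm in control, 10.3 ± 1.31 cpm after VLDLsep and 10.6 ± 0.933 cpm after CHYLsep (SD, n = 3), with 95% intervals of the log2 difference of -0.37 to 0.13 and -0.33 to 0.16, and was not called in either comparison. *Pdk4*, which restrains glucose oxidation, had 1 count in 1 CHYLsep library and 0 in the other 8, and was not tested. *Fabp4*, a fatty acid binding protein of adipocytes and macrophages, had 6.31, 6.87 and 12.05 cpm in control, 6.34, 6.65 and 14.6 cpm after VLDLsep and 7.09, 6.08 and 12.3 cpm after CHYLsep. Replicate 3 was the highest library in every group, and the gene did not pass (0.08 and 0.01). The scavenger receptor gene *Cd36* was scarce, with 2, 1 and 5 counts in control, 7, 2 and 11 after VLDLsep and 7, 11 and 13 after CHYLsep. It passed the count filter through treated libraries only, so its call after CHYLsep is not used as support. Of 7 listed genes for carriers of fatty acids or retinoic acid, 3 were tested and none was called in either comparison, and the list's median log2 fold change was -0.18 and -0.24.

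**Figure D3:**
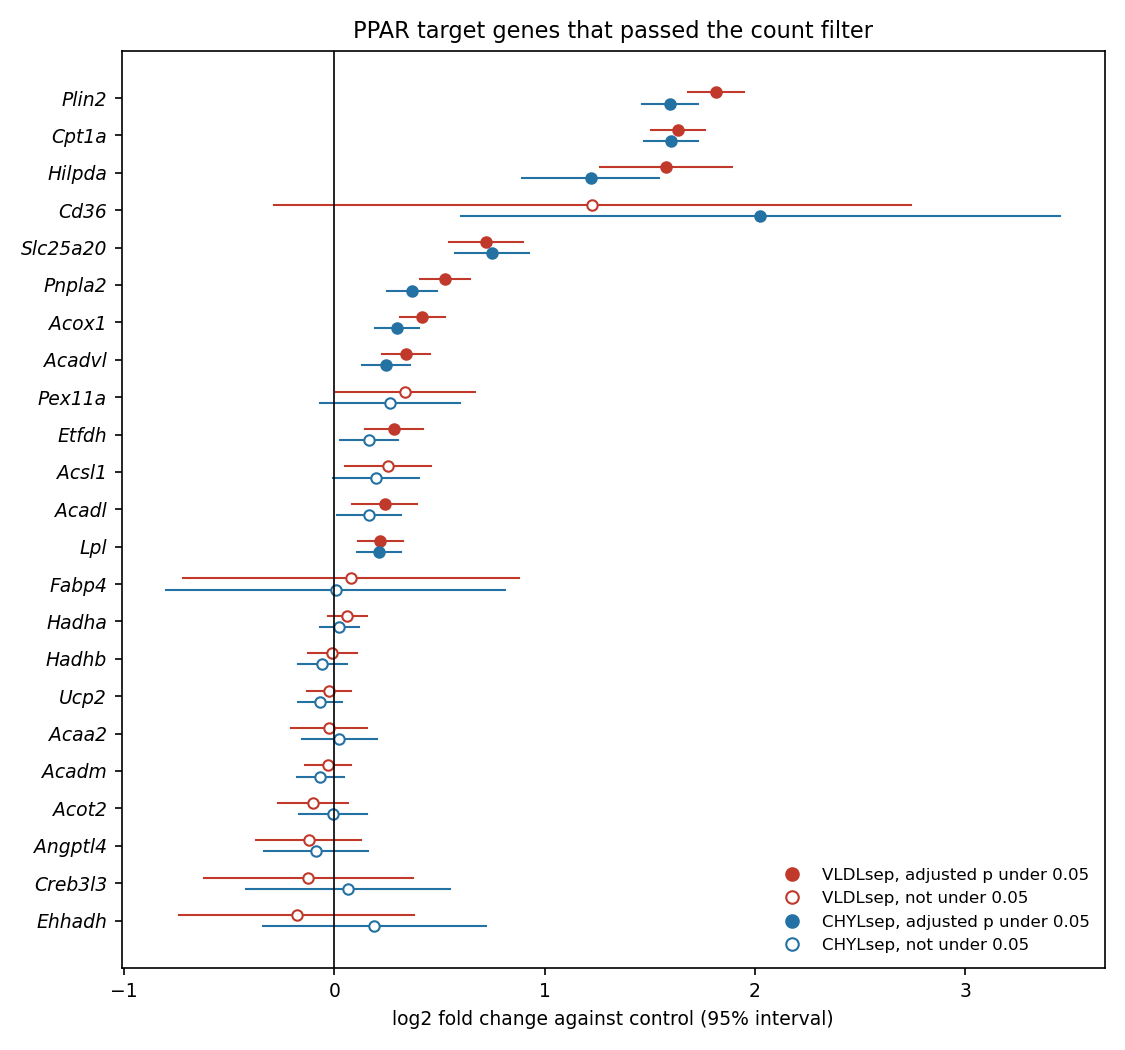
Log2 fold change against control, with its 95% interval as a line, of the 23 PPAR target genes that passed the count filter, for VLDLsep and CHYLsep, where filled points passed at the 0.05 level (limma-voom with Benjamini-Hochberg adjustment). All filled points lie to the right of 0, with *Plin2*, *Cpt1a* and *Hilpda* among the largest, and *Cd36*, which passed the filter through treated libraries only, has the widest interval.

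Of 15 other coactivator genes, all tested, 1 was higher and 4 lower after VLDLsep (33.3% called, near the 35.6% of all genes tested) and 1 higher and 5 lower after CHYLsep (6 of 15, against 25.7% of all genes; list medians -0.03 and -0.05). The largest change was that of *Lpin1*, which encodes lipin-1, a phosphatidate phosphatase that also acts with PGC-1α: it fell from 20.5 ± 1.36 cpm to 6.09 ± 0.433 cpm and 6.11 ± 0.861 cpm (SD, n = 3), with log2 fold changes of -1.75 (adjusted p = 1.9e-06) and -1.75 (adjusted p = 2.7e-06) with limma-voom and Benjamini-Hochberg adjustment. *Smarcd1* (-0.42 and -0.33), *Kat2b* (-0.37 and -0.22) and *Ncoa3* (-0.27 and -0.28) fell, and the acetyltransferase gene *Crebbp* rose (0.35 and 0.20). *Pprc1*, the third PGC-1 family gene, was called after CHYLsep only (-0.18, against -0.15 after VLDLsep), a difference between particles that did not pass, and lost that call in 7 of 19 alternatives (adjusted p up to 0.12, limma-voom with Benjamini-Hochberg adjustment). The CHYLsep calls of *Kat2b* and *Crebbp* were lost in 7 of 19 (adjusted p up to 0.15) and 9 of 19 (adjusted p up to 0.15) alternatives, and the call of *Ncoa3* in 2 of 19 (adjusted p up to 0.059) for VLDLsep and 2 of 19 (adjusted p up to 0.061) for CHYLsep.

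*Med1* is 1 of 30 Mediator genes considered, and the 29 others were all tested. After VLDLsep 7 were higher and 4 lower (37.9% called), after CHYLsep 6 higher and 2 lower (27.6%), close to the shares of all genes tested (35.6% and 25.7%), with list medians of 0.0014 and 0.01. *Med13*, a subunit of the kinase module, had 78.3, 81.4 and 71.2 cpm in control, 118, 119 and 116 cpm after VLDLsep and 106, 99.99 and 97.7 cpm after CHYLsep, and rose by 0.62 and 0.40 on the log2 scale. *Med21* (0.38 and 0.24) and *Med7* (0.30 and 0.38) rose too, whereas *Med22* (-0.59 and -0.48) and *Med16* (-0.41 and -0.29) fell. *Med26* was called after CHYLsep (0.31) and not after VLDLsep (0.18), and its call was lost in 10 of 19 (adjusted p up to 0.18) alternatives. The VLDLsep call of *Med7* was lost in 1 of 19 (adjusted p up to 0.054), and the CHYLsep calls of *Med16* in 2 of 19 (adjusted p up to 0.057) and of *Med21* in 1 of 19 (adjusted p up to 0.061).

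Among 8 partners of the corepressors, none was higher and 2 were lower in each comparison, 25.0% of the list against 35.6% of all genes tested for VLDLsep and 25.7% for CHYLsep (list medians -0.13 and -0.13). *Tbl1xr1*, a core subunit of the NCOR1 complex, fell from 77.0 ± 2.16 cpm to 61.3 ± 3.24 cpm and 63.4 ± 2.39 cpm (SD, n = 3), log2 fold changes of -0.33 and -0.28, and *Ctbp1*, which binds NRIP1, fell as well (-0.21 and -0.17). The deacetylase gene *Hdac3* had -0.16 and -0.11 and did not pass in either comparison. The CHYLsep call of *Ctbp1* was lost in 4 of 19 (adjusted p up to 0.097) alternatives.

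Of 12 partners and targets of the PGC-1 coactivators 11 were tested, and 1 was higher and 1 lower in each comparison (18.2% called, below the 35.6% and 25.7% of all genes tested; list medians -0.09 and -0.01). *Cycs*, which encodes cytochrome c, rose by 0.25 and 0.21, and *Polg*, the mitochondrial DNA polymerase, fell (-0.21 and -0.21). The calls of *Polg* were lost in 4 of 19 (adjusted p up to 0.074) and 5 of 19 (adjusted p up to 0.10) alternatives, and the CHYLsep call of *Cycs* in 3 of 19 (adjusted p up to 0.060). *Esrra*, the orphan receptor through which PGC-1 proteins act on mitochondrial genes, did not pass (-0.09 and 0.02). Among 46 other nuclear receptors, of which 25 were tested, 4 were higher and 3 lower after VLDLsep (28.0% called) and 4 higher and 1 lower after CHYLsep (20.0%), again below the shares of all genes tested (list medians -0.07 and 0.02). *Esr1* (0.85 and 0.66), *Nr1d2* (0.71 and 0.54) and *Rora* (0.59 and 0.37) rose like *Ppard*, and *Nr0b2*, which encodes the corepressor SHP, fell after VLDLsep (-1.26). The CHYLsep call of *Nr0b2*, at -0.74, was lost in 12 of 19 (adjusted p up to 0.17) alternatives, those of *Esr1* in 2 of 19 (adjusted p up to 0.060) and of *Rora* in 3 of 19 (adjusted p up to 0.069). Without replicate 3 of every group the CHYLsep value of *Nr0b2* was -0.38.

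Some of the macrophage markers were called as well, chiefly after VLDLsep, although none of the 7 was called between the particles. After VLDLsep 1 of the 7 was higher and 4 lower (71.4% called, against 35.6% of all genes tested), and after CHYLsep 1 was lower (14.3% against 25.7%; list medians -0.14 and -0.09). *Ptprc* (-0.31 and -0.23) fell in both comparisons, after VLDLsep *Spi1* (-0.25) and *Itgam* (-0.18) were lower and *Cd68* (0.17) higher. These VLDLsep calls were lost in 3 of 19 (adjusted p up to 0.062), 7 of 19 (adjusted p up to 0.15) and 7 of 19 (adjusted p up to 0.31) alternatives, and the CHYLsep call of *Ptprc* in 1 of 19 (adjusted p up to 0.065). The part of these shifts in the values of the members was not tested.

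The genes most like each tested member were sought by the Pearson correlation of log2 cpm over the 9 libraries, which fall into 3 groups and share the replicate pattern, so the values are a description. For *Ppard* they were *Galnt6* (0.98), *H2-Q5* (0.98) and *Zfp131* (0.98). *Galnt6* had 64.2 ± 1.58 cpm in control, 104 ± 6.11 cpm after VLDLsep and 86.5 ± 1.99 cpm after CHYLsep (SD, n = 3), the same order of groups as *Ppard*. *H2-Q5* belongs to a family of near-identical class I genes between which reads can be split, so its level is uncertain. For *Pparg* they were *Kat5* (0.93), *Poldip3* (0.92) and *Ercc6l2* (0.92), at counts of *Pparg* low enough for counting error to weigh. For *Ppargc1b* they were *Gm36298* (0.97), *Prdm10* (0.97) and *Pbxip1* (0.97). *Med1* was closest to *Fam120c* (0.97), *Gm28037* (0.96, with no count in control) and *Ephx1* (0.96), and *Ncor1* to *Ephx1* (0.97), *Ice1* (0.96) and *Cdc42bpb* (0.96). *Gm28037* was scarce and scattered in the treated groups as well, with 0.792 ± 0.694 cpm after VLDLsep and 0.570 ± 0.988 cpm after CHYLsep (SD, n = 3). Its correlation with *Med1* therefore carries little weight. *Nrip1* was closest to *Man2a1* (0.98), *Esyt2* (0.95) and *Nckap1l* (0.94).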

How the data were processed

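RNAseq of 9 libraries of RAW264.7 cells was used, grouped by the sample labels. The authors deposited estimated counts per gene, made with Salmon 0.14.1 on GENCODE transcripts of GRCm38.p6 and summed to genes with tximport. According to the methods the counts had been scaled to account for library size and transcript length. Among deposited values over 10, however, 58.3% are integers (tolerance 1e-09), so the table was treated as unscaled. Symbols, coordinates and transcript lengths came from the GENCODE release of GRCm38 before the one the authors used and matched 54346 of 54432 genes.

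The 12637 genes that exceeded 10 counts in 3 or more libraries were fitted in R 4.3.3 with limma 3.58.1 after TMM scaling with edgeR 4.0.16 and voom weights, in a single model of 9 libraries without a replicate block, with Benjamini-Hochberg adjustment over all genes tested. Values in cpm use TMM-scaled library sizes. The steps were tested on simulated data. Counts were rounded for edgeR's quasi-likelihood test and DESeq2 1.42.0. Other alternatives were limma-trend (prior count 2), library size only, upper-quartile scaling, no filter, a filter at 50 counts, only the groups compared, the replicate block, each library left out and replicate 3 of every group left out.

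The members and the gene lists were chosen with earlier results of these data known, and the lists come from general knowledge. Named genes are all 8 members, up to 4 called genes of each list with the largest absolute log2 fold change per particle, the genes *Pdk4*, *Angptl4*, *Plin2*, *Hilpda*, *Cpt1a*, *Cd36*, *Fabp4*, *Rxra*, *Rxrb*, *Hdac3*, *Pprc1* and *Esrra*, the 5 nuclear receptors highest per length, and the 3 genes most correlated with each tested member. Markers and neighbours in the order of receptors are named besides. No promoter entry was matched to *Ppargc1b*. Protein sequences were not used here.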

Additional observations from a re-analysis of the deposited data

How the results depend on the processing

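*Ppard* was called in both particle comparisons under all 19 alternatives, with a log2 fold change of 0.88 to 1.10 for VLDLsep and 0.55 to 0.65 for CHYLsep. The count of members called was 2 with DESeq2 for VLDLsep (*Ncor1* added), and when libraries were left out it ran from 1 to 3 for VLDLsep and from 1 to 2 for CHYLsep. Between the particles DESeq2 called 24 genes in place of 0, and the fits that left out libraries called 0 to 257. The causes were not tested. DESeq2 gave no adjusted p for *Ppard*, *Pparg*, *Ppargc1b* and *Nrip1* between the particles, and the filter at 50 counts left out *Pparg*.

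With the replicate number as a block, 3 members were called for VLDLsep (*Ppard*, *Ncor1* with adjusted p = 0.0056 and *Ppargc1b* with adjusted p = 0.0067) and 2 for CHYLsep (*Ppard* and *Nrip1* with adjusted p = 0.047, limma-voom with Benjamini-Hochberg adjustment). The block raised the calls over all genes from 4500 to 6058 for VLDLsep, from 3249 to 4949 for CHYLsep and from 0 to 147 between the particles. Deviations of same-numbered libraries from their group means correlated at 0.00021 to 0.28 over all 12637 genes, with a median of 0.099. Pairs with different numbers had a median of -0.096. Not all same-number values were above 0.1, so the main fit was left without a block. Over the 10596 genes with a mean of at least 50 counts the correlations of same-numbered libraries were 0.16 to 0.60, all above 0.1. Their median was 0.34, against -0.32 for pairs with different numbers. This second set was examined after the calls with the block had been seen and was therefore not used to decide, and the answer depends on the set. In neither set did every library correlate best with its own number. The replicate 3 libraries did, at 0.22 to 0.28 over all genes and 0.51 to 0.60 in the second set. Their correlations with libraries of other numbers were all negative.

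Some values changed sign. For *Fabp4* these were, for VLDLsep and CHYLsep, -0.014 and -0.075 with library size only, and -0.31 to 0.37 and -0.29 to 0.29 when libraries were left out, among them -0.019 and -0.0036 without replicate 3 of every group. With library size only, CHYLsep values were -0.037 for *Med1*, -0.027 for *Ncor1* and -0.058 for *Esrra*. When libraries were left out the ranges were, for CHYLsep, -0.016 to 0.083 (*Med1*), -0.0028 to 0.093 (*Ncor1*), -0.097 to 0.14 (*Esrra*) and -0.47 to 0.083 (*Pparg*), for VLDLsep, -0.069 to 0.00997 (*Rxrb*) and -0.21 to 0.013 (*Esrra*), and between the particles, -0.29 to 0.046 (*Ppargc1b*) and -0.010 to 0.11 (*Nrip1*).

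Depth limits *Ppara*, *Ppargc1a*, *Pparg* and *Cd36*, whose counts were too low to show small changes.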
